A study of Arabidopsis thaliana with 6 samples.

Results

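Lead treatment of Arabidopsis thaliana roots was examined on 3 arrays: roots grown without added lead, with 25 ppm lead and with 50 ppm lead, out of 6 arrays in the series. Of 4728 probe sets compared between these roots, 246 differed at least 2-fold the same way at both doses, and the account below is about the genes they name. The other 3 arrays hold rosette leaves of the same treatments. All plants were of the accession Col-4, stood in hydroponic culture under 10 h days, at 22 °C in the light and 18 °C in the dark, and had reached growth stage 6.00, per the labels. Lead was added 2 times to the nutrient solution as lead nitrate, at an interval of 1 week, between growth stages 3.90 and 5.10. The labels do not say whether control plants received matching nitrate, so lead and its nitrate cannot be told apart. The number of plants behind an RNA sample is not stated there either.

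Each dose was measured on 1 array, and no value below has a replicate. A transcript was therefore counted as changed by size alone, with no test: at 25 ppm and again at 50 ppm, its signal had to lie at least 2-fold above that of control roots, or at both at least 2-fold below it. Dose and array cannot be told apart. Signals under 8 were set to 8 before any fold was taken, so a fold measured from such a value is a lower bound. A probe set is a group of probes read as 1 value, usually for 1 gene, though 70 name several. Of 8247 probe sets, 4728 reached a signal of 25 on at least 1 root array and were compared. In bulk tissue, a different share of cells of a type and a different amount of RNA per cell cannot be told apart.

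Lead is a non-essential metal that binds thiol groups and competes with calcium and zinc ions in proteins. Roots are the organ that meets it first, and much of the metal taken up there is held in cell walls. Plants are known to answer heavy metals with thiol compounds made from assimilated sulfate, with peroxidases and other redox enzymes, with chaperones, and with changes in the wall and its lipid barriers. The title of the series gives its aim as expression of genes for taking up, tolerating and defending against lead.

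The root label was checked against marker genes. Of 26 leaf marker loci, all genes of photosynthesis, 5 had a named probe set, and the summed signal of their 9 probe sets was 249 without lead, 195 at 25 ppm and 179 at 50 ppm, against 27287 to 37505 on the leaf arrays. PSBW, a photosystem II protein, lay under 8 on all 3 root arrays. Of 20 root marker loci 4 were named, and their summed signal was 9460 without lead, 9675 at 25 ppm and 8016 at 50 ppm, against 10.6 to 17.9 on leaf arrays. The average background was 86.48 on the control array, 97.80 on the 25 ppm array and 192.65 on the 50 ppm array, which stands apart. The ratio of 3' to 5' signal, which is raised by broken RNA, was 1.28 without lead, 0.826 at 25 ppm and 1.16 at 50 ppm for GAPDH, and 2.23, 2.06 and 2.00 in the same order for ubiquitin. Their part in the results was not tested.

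At 25 ppm, 240 of the 4728 probe sets (5.08%) were at least 2-fold higher than in control roots and 289 (6.11%) were lower. At 50 ppm, 554 (11.7%) were higher and 272 (5.75%) were lower. The comparisons share the control array. Both doses together gave 246 changed probe sets (5.20%), of which 152 were higher (3.21%) and 94 were lower (1.99%), while 21 were 2-fold higher at one dose and 2-fold lower at the other. The count of higher probe sets depends on the floor: with signals under 32 set to 32, 82 were higher and 78 lower. Leaving the 50 ppm array unused leaves the counts at 25 ppm.

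**Figure D1:**
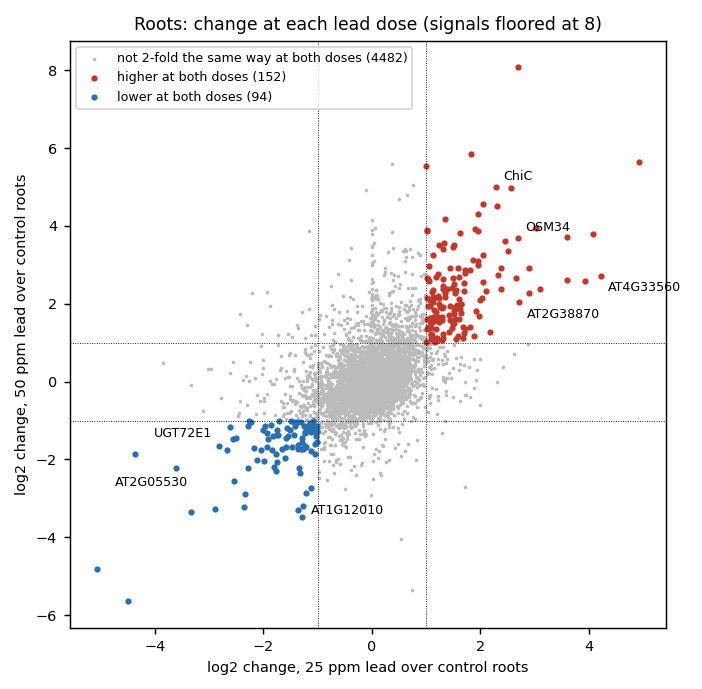
Each point is 1 of the 4728 compared probe sets, placed by its log2 change at 25 ppm (horizontal axis) and at 50 ppm (vertical axis) over control roots, with dotted lines at 2-fold. The 152 probe sets higher at both doses lie in the upper right corner and the 94 lower ones in the lower left, and the doses share 1 control array.

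The higher transcripts had larger folds at the higher dose, and the lower ones had about equal folds at both. The 50 ppm array leaned the same way over all compared probe sets. Higher calls made up 11.7% there and 5.08% at 25 ppm, while lower calls made up 5.75% and 6.11%. The pattern is therefore not particular to the changed probe sets, and the part of that array's higher background was not tested. The median fold of the 152 higher probe sets was 2.75 at 25 ppm and 4.37 at 50 ppm, and 117 of them were further from control at 50 ppm. Between the lead-treated arrays, 47 of them were at least 2-fold higher at 50 ppm and 2 were at least 2-fold higher at 25 ppm. The 94 lower probe sets were a median 2.75 times lower at 25 ppm and 2.74 times lower at 50 ppm, and 48 of them were further from control at 50 ppm. The median signal in control roots was 26.5 for the higher probe sets and 196 for the lower ones. In control roots 22 of the higher probe sets lay under the floor. The rule itself favours this contrast. A lower probe set has to reach 25 in control roots, while a higher one can pass the filter on a lead array alone. Of the lower ones, 8 lay under it on at least 1 array of lead-treated roots.

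The changed probe sets included 93 that name exactly 1 gene, for 91 loci, while 147 are unnamed here and 6 name several genes. Of the loci, 59 were higher and 32 lower, and none had probe sets in both directions. The naming table lists 68 of the 91 by locus alone. The roles given for those below are background from the general annotation of the Arabidopsis genome. The grouping by role, like the locus lists of gene families used below, was made after the values were seen. It placed 63 loci, 42 higher and 21 lower, and it describes the changed genes without testing any group. Each role group holds changed loci only, so its counts give no share of the genes of that role. Over all compared probe sets, 3.21% were higher and 1.99% lower at both doses.

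The defence and wounding group held 7 changed loci, 6 higher and 1 lower. OSM34, an osmotin of the thaumatin family whose members act on fungal membranes, gave 189 without lead (control roots), 1231 at 25 ppm and 2424 at 50 ppm, which is 6.52-fold and 12.8-fold. ChiC, a chitinase that cuts the chitin of fungal walls, measured 0.7 without lead, 39.3 at 25 ppm and 255 at 50 ppm, which is at least 4.91-fold and at least 31.9-fold. A second chitinase gene, CHI, had 55.5 without lead, 216 at 25 ppm and 472 at 50 ppm. Signals of these 3 genes thus kept the order of the doses.

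The remaining changed defence genes did not all follow that order. AT2G38870, a proteinase inhibitor of the potato inhibitor I type, gave 101 without lead, 665 at 25 ppm and 419 at 50 ppm. AT4G33560, of a wound-responsive family, gave 9.2 without lead, 172 at 25 ppm (18.6-fold) and 60.2 at 50 ppm (6.54-fold), so that both had their highest signal at 25 ppm. AT1G78830, a protein with a mannose-binding lectin domain, measured 244, 619 and 1174 at 0, 25 and 50 ppm. AT1G75800, another member of the thaumatin family, was lower, with 142 without lead, 48.1 at 25 ppm and 61.7 at 50 ppm. SERPIN1, PR-1-LIKE, JAL34 and JAL31, of defence families found by name, were compared too and did not meet the rule at both doses.

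**Figure D2:**
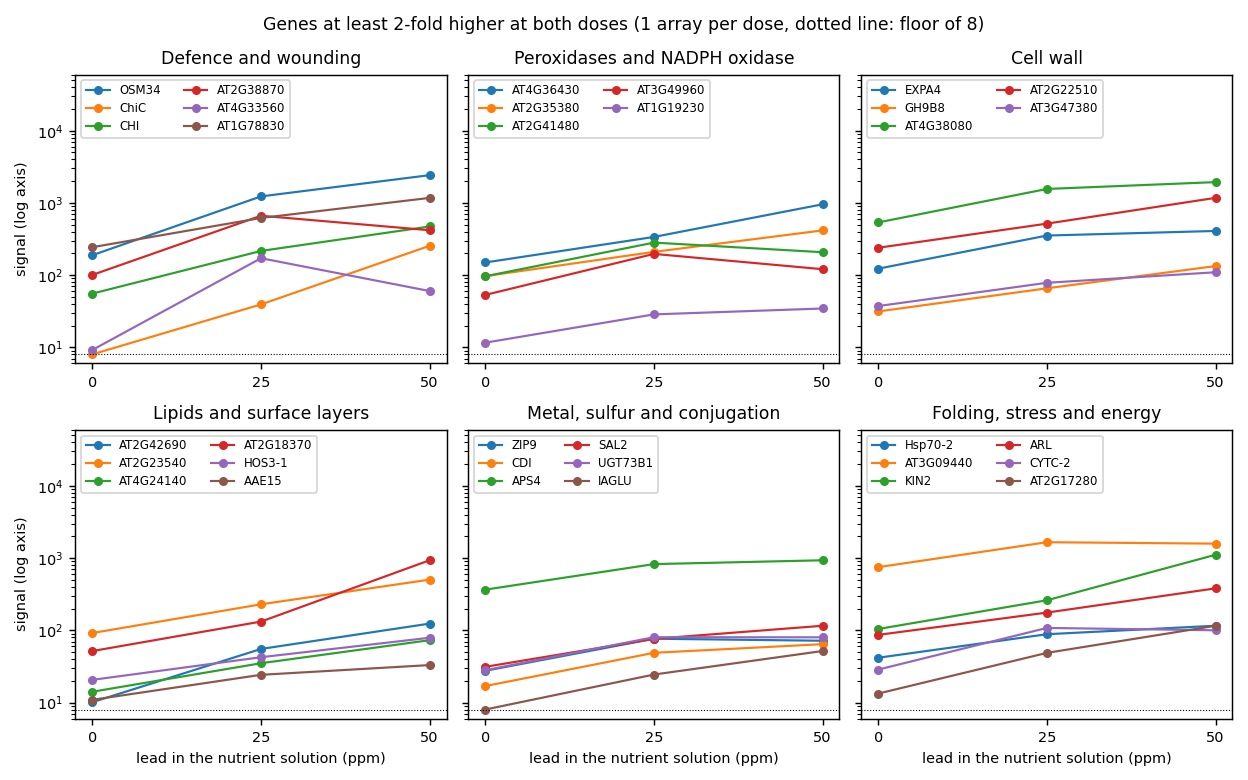
Signals of 34 named genes that were at least 2-fold higher at both doses, by role, with lead in the nutrient solution in ppm (0, 25 and 50) on the horizontal axis, signal on a log axis and 1 array per point. OSM34 lies at 189, 1231 and 2424, whereas AT4G33560, AT2G38870, AT2G41480 and AT3G49960 are highest at 25 ppm. By smaller margins ZIP9, CYTC-2, AT3G09440 and UGT73B1 are highest there too.

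Oxidative enzymes of the wall were next. Class III peroxidases are secreted enzymes that use hydrogen peroxide to couple wall phenolics, and that also make reactive oxygen. Of the 73 loci of this family, 37 were compared, on 41 probe sets. At both doses 4 probe sets (9.76%) were at least 2-fold higher, where 3.21% of all compared probe sets were, and 1 (2.44%) was lower, where 1.99% were. AT4G36430 measured 150 without lead, 338 at 25 ppm and 957 at 50 ppm. AT2G35380 measured 96.8 without lead, 210 at 25 ppm and 416 at 50 ppm, and its second probe set, just short of 2-fold at 25 ppm, gave 24.5, 48.2 and 114.5 at 0, 25 and 50 ppm.

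The other pair of higher peroxidases had their maximum at 25 ppm. AT3G49960 measured 53.2 without lead, 197 at 25 ppm and 121 at 50 ppm, and AT2G41480 (PRX25) measured 96.4, 282 and 208 at these doses. AT3G01190 was the lower one, at 1057 without lead, 481 at 25 ppm and 436 at 50 ppm. These 5 genes lay under 8 on all 3 leaf arrays, except AT4G36430, which gave 17.8 to 26.7 there.

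Most of the family did not meet the rule at both doses. At 25 ppm 6 of the 41 peroxidase probe sets were at least 2-fold higher and 7 lower, where 5.08% and 6.11% of all compared probe sets were. At 50 ppm 13 were higher and 2 lower, where 11.7% and 5.75% of all were. The median log2 change of the 41 was 0.02 at 25 ppm and 0.23 at 50 ppm, against 0.02 and -0.02 over all compared probe sets. AT3G21770 measured 1098 without lead, 342 at 25 ppm and 1341 at 50 ppm, and AT5G39580 measured 245, 48.9 and 273 in that order, so that both were low at 25 ppm alone. AT5G06730 was high at 50 ppm alone, with 21.6 without lead, 16.2 at 25 ppm and 188 at 50 ppm. PRXR1 differed less than 2-fold, with 2959 without lead, 2691 at 25 ppm and 2396 at 50 ppm. Peroxidase values other than the changed ones are named here after being seen.

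**Figure D3:**
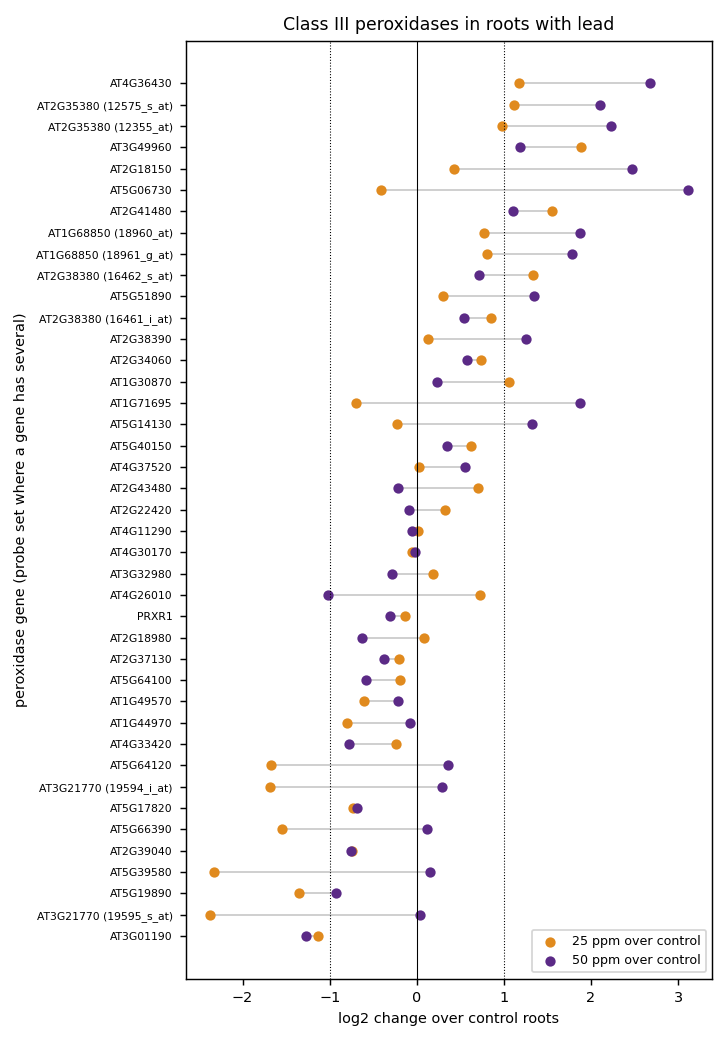
Log2 change of 41 probe sets of class III peroxidases at 25 ppm and at 50 ppm over control roots, ordered by the mean of both, with dotted lines at 2-fold. Lines join the doses of a probe set: AT3G01190 lies beyond the lower line at both doses, and long lines such as that of AT5G06730 mark genes that differed at 1 dose.

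A NADPH oxidase, the type of membrane enzyme that makes superoxide outside the cell, was also among the higher genes. AT1G19230, known as RBOHE, measured 11.6 without lead, 28.6 at 25 ppm and 34.5 at 50 ppm, all near the lower end of the measured range, and with signals under 16 set to 16 it was no longer 2-fold higher at 25 ppm. Of the 10 genes of this family 3 were compared and the other 2 were not called: AT4G25090 gave 73.6, 77.7 and 79.3 at 0, 25 and 50 ppm and AT4G11230 gave 35.7, 14.9 and 27.7. Thus 1 of 3 was higher at both doses, where 3.21% of all compared probe sets were. Nothing about the family is read from so few genes.

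The cell wall group held 7 changed loci, 5 higher and 2 lower. EXPA4, an expansin that loosens walls during growth, measured 123 without lead, 353 at 25 ppm and 409 at 50 ppm. It was 1 of 6 expansin probe sets, and the only one changed at both doses, where 3.21% of all compared probe sets were higher at both. At 50 ppm 4 of the 6 were at least 2-fold higher, where 11.7% of all were. EXPA15 gave 54.4 without lead, 74.7 at 25 ppm and 150.2 at 50 ppm, and EXPA8 gave 21.0, 26.4 and 47.0. The cellulase-type gene GH9B8 measured 31.4 without lead, 65.7 at 25 ppm and 134 at 50 ppm.

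Structural wall proteins were among the higher genes. AT4G38080, of a hydroxyproline-rich glycoprotein family, measured 537 without lead, 1561 at 25 ppm and 1942 at 50 ppm. AT2G22510, annotated to the same kind of family, gave 239 without lead, 517 at 25 ppm and 1175 at 50 ppm. Pectin-modifying genes were found on both sides. AT3G47380, a pectin methylesterase inhibitor family gene, measured 37.3 without lead, 78.3 at 25 ppm and 109.6 at 50 ppm on one probe set, and its other 2 probe sets did not reach 2-fold at 25 ppm. The pectin methylesterase ATPMEPCRD was lower, at 151 without lead, 45.4 at 25 ppm and 58.2 at 50 ppm. AT2G05530, of a glycine-rich protein family, was also lower, with 267 without lead, 22.0 at 25 ppm and 57.3 at 50 ppm. Other wall genes found by name did not meet the rule at both doses. They had 5 compared probe sets of xyloglucan enzymes, 2 of the pectin enzyme gene ATPMEPCRB and 1 of CSLA03.

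The lipids and surface layers group held 8 changed loci, 6 higher and 2 lower. AT2G18370, a lipid transfer protein of the kind that carries lipids through the wall, measured 51.6 without lead, 132 at 25 ppm (2.56-fold) and 935 at 50 ppm (18.1-fold). AT2G23540, a GDSL-type lipase or esterase, measured 91.7 without lead, 229 at 25 ppm and 504 at 50 ppm. AT4G24140, an alpha/beta hydrolase of the family of the cuticle gene BODYGUARD, measured 14.1, 35.0 and 73.0 at 0, 25 and 50 ppm. These 3 genes and the following one had their highest signal at 50 ppm.

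AT2G42690, of a family of phospholipase A1 type lipases, was higher on both of its probe sets. AT2G42690 on the first gave 10.1 without lead, 55.2 at 25 ppm and 124 at 50 ppm, and on the other 14.4, 60 and 136 at these doses. Leaf signals on the first probe set were 415, 357 and 487 at the same doses, above each of its root signals. HOS3-1, a fatty acid elongase gene, gave 20.6 without lead, 42.4 at 25 ppm and 78.9 at 50 ppm, and the acyl-activating enzyme AAE15 gave 10.9, 24.2 and 33.0. AT4G24140 was the 1 compared gene of a list of 11 suberin and cutin genes.

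Against these stood a pair of lower genes of the lipid transfer superfamily. AT4G22460 measured 323 without lead, 132 at 25 ppm and 29.2 at 50 ppm. AT2G45180 measured 667 without lead, 307 at 25 ppm and 101 at 50 ppm on one probe set. Its other probe set gave 1069, 545 and 190.3 and missed 2-fold at 25 ppm. Both had their lowest signal at 50 ppm, where AT2G18370 had its highest. AT1G54010 and SGT, found by name in the lipid families, were compared too and did not meet the rule at both doses.

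Of the loci with a link to metals or sulfur, 4 met the rule, all of them higher, and others that were compared did not meet it. ZIP9, of the ZIP family that brings zinc and iron ions into cells, measured 27.5 without lead, 76.5 at 25 ppm and 71.7 at 50 ppm, while ZIP6, the other compared member of 15 ZIP and IRT genes, gave 103, 114 and 81.3. CDI, which the naming table describes as induced by cadmium, measured 16.9 without lead, 48.8 at 25 ppm and 64.3 at 50 ppm. APS4, an ATP sulfurylase that activates sulfate for assimilation, measured 366 without lead, 826 at 25 ppm and 933 at 50 ppm. SAL2, a phosphatase related to SAL1, the enzyme that removes a by-product of sulfate activation, measured 31.2, 76.2 and 116 at 0, 25 and 50 ppm. APS4 and SAL2 were 2 of 4 compared genes on a list of 13 for sulfate uptake and assimilation, and ZIP9 was 1 of 2 on its list. Of all compared probe sets 3.21% were called higher, and with so few genes no trait of either list is read from this. APS3, another ATP sulfurylase, gave 76.2, 102.2 and 213.5 at these doses, and SIR, the sulfite reductase, gave 267.5, 217.8 and 382.8. CCS, which delivers copper to superoxide dismutase, gave 300.3, 202.4 and 151.4, just under 2-fold lower at 50 ppm. Of a list of 25 genes of phytochelatin, glutathione, metallothionein and metal pump function, 0 had a compared probe set that names 1 gene. Those genes were therefore not analysed here.

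Enzymes that attach sugars or methyl groups, or reduce small molecules, were split, with 5 changed loci higher and 4 lower. Of 12 UDP-glycosyltransferase genes found by name, 2 were higher and 1 was lower at both doses, where 3.21% and 1.99% of all compared probe sets were. UGT73B1, an enzyme known to act on flavonoids, measured 28.0 without lead, 80.3 at 25 ppm and 80.0 at 50 ppm. IAGLU, which attaches glucose to the auxin indole-3-acetate, measured 8.0 without lead, 24.4 at 25 ppm and 51.7 at 50 ppm. With signals under 16 set to 16, IAGLU was no longer 2-fold higher at 25 ppm, and 1 glycosyltransferase gene was left higher at both doses. UGT72E1, which acts on lignin precursors, was lower, at 401 without lead, 57.1 at 25 ppm (7.02 times lower) and 127 at 50 ppm (3.15 times lower). AT3G46690, a glycosyltransferase listed by locus only, was lower as well, with 87.1, 32.2 and 33.5 at these doses. At 50 ppm, taken by itself, 5 of the 12 were at least 2-fold higher, where 11.7% of all were, such as UGT85A2 with 84.2 without lead, 91.7 at 25 ppm and 213 at 50 ppm.

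The short-chain dehydrogenase family gave a pair of higher genes. AT4G13180 measured 40.1 without lead, 125 at 25 ppm and 160.3 at 50 ppm, and AT2G29150, of the tropinone reductase type, measured 6.4, 24.9 and 31.9. Methyltransferase-like genes lay on both sides. AT2G41380 measured 7.2 without lead, 16.2 at 25 ppm and 119 at 50 ppm. Its log2 change at 25 ppm was 1.02, and AT2G41380 kept its call in 1 of 5 other floors and scalings, with 0.02 for a floor of 16, 0.00 for a floor of 32, 0.47 for an offset of 16 and 0.99 after quantile normalization. AT4G33110 and AT4G33120, neighbours on the chromosome, were both lower: AT4G33120 gave 315 without lead, 62.4 at 25 ppm and 42.2 at 50 ppm, and AT4G33110 gave 69.7, 25.0 and 21.9. Whether the probes of such related neighbours also bind each other's RNA was not tested.

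Protein folding and turnover held 4 of the changed loci, all of them higher. AT3G09440, a cytosolic Hsp70 chaperone, measured 749.5 without lead, 1660.2 at 25 ppm and 1586 at 50 ppm on one probe set. Its other probe set gave 410.4, 425 and 721, under 2-fold at both doses. Hsp70-2 measured 41.7 without lead, 88.3 at 25 ppm and 116 at 50 ppm on one probe set. Its other probe set gave 8.0, 13.9 and 42.7. These were the 2 compared genes of a list of 12 Hsp70 genes. Of their 4 probe sets 2 were higher at both doses, where 3.21% of all compared probe sets were. The ubiquitin ligase type genes AT4G25160, with a U-box and a kinase domain, and AT4G10160, with a RING domain, gave 10.6, 55.5 and 55.2 and 8.0, 25.7 and 21.3 at 0, 25 and 50 ppm. Of 12 probe sets of protease genes found by name, 0 changed at both doses, where 5.20% of all compared probe sets did, so that a count of 0 in so few is near that share. Ubiquitin and proteasome genes found by name had 6 compared probe sets, and 0 of these changed at both doses.

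In stress, hormone and gene control 4 of the changed loci were higher and 6 lower. KIN2, a cold- and abscisic acid-inducible gene, measured 104 without lead, 261 at 25 ppm and 1112 at 50 ppm on one probe set. On its other probe set it gave 150.4, 349.8 and 1015. Of 11 probe sets found by words for abscisic acid, cold and desiccation, the 2 of KIN2, which measure 1 gene, were higher at both doses, where 3.21% of all compared probe sets were. At 50 ppm 4 of the 11 were at least 2-fold lower, where 5.75% of all were. They are the probe sets of only COR47 and DI21, so they are not 4 separate genes. ARL, a growth regulator related to ARGOS, measured 86.5 without lead, 176 at 25 ppm and 381 at 50 ppm. AT3G16280, an ERF-type transcription factor gene, measured 10.1, 20.7 and 62.5 at these doses.

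AT1G12010, an ACC oxidase of the last step of ethylene synthesis, was lower, with 971.5 without lead, 406 at 25 ppm (2.40 times lower) and 105 at 50 ppm (9.24 times lower). It is the only 1 of 5 ACC oxidase genes that was compared. Lower regulators were BPC1, a GAGA-binding transcription factor, with 124 without lead, 53.5 at 25 ppm and 51.6 at 50 ppm, and AT1G21000, a PLATZ-type zinc-binding protein, with 149, 24.4 and 65.7. AT2G45820, a remorin of the plasma membrane, was lower at 616 without lead, 234 at 25 ppm and 294 at 50 ppm. The kinase gene AT1G61590 gave 345, 95.3 and 159.9, and AT1G61750, of a receptor-like family, gave 28.7, 6.8 and 8.5. Of 9 probe sets of WRKY factors, which regulate defence genes, 0 changed at both doses, near the 5.20% of all compared probe sets.

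**Figure D4:**
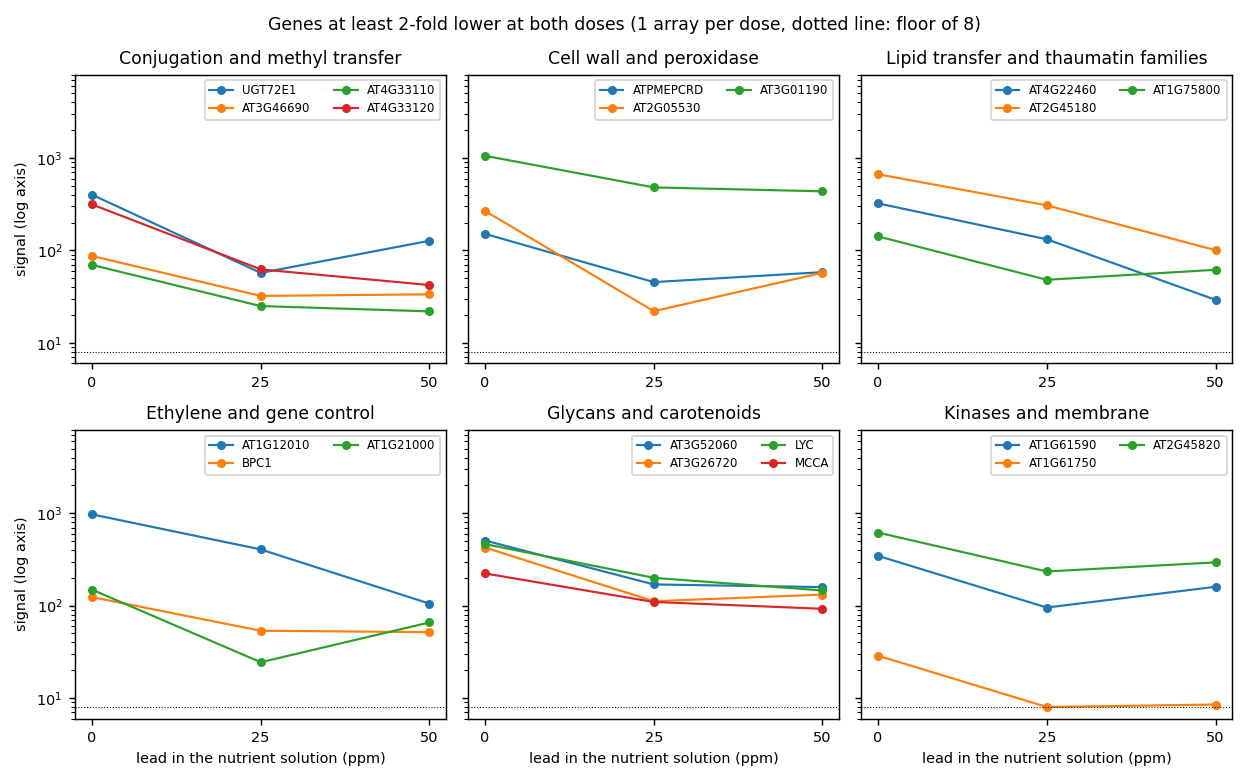
Signals of 20 named genes that were at least 2-fold lower at both doses, by role, with lead in ppm (0, 25 and 50) on the horizontal axis, signal on a log axis and 1 array per point. Among others, AT1G12010, AT4G22460 and AT2G45180 are lowest at 50 ppm, while UGT72E1, AT2G05530 and AT1G21000 are among those lowest at 25 ppm.

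Changed energy, carbon and glycan genes numbered 3 higher and 5 lower. CYTC-2, one of the cytochrome c genes of the respiratory chain, measured 28.6 without lead, 108 at 25 ppm and 100.1 at 50 ppm, whereas CYTC-1, the other cytochrome c gene compared, gave 1651, 2273 and 1916. AT2G17280, of the phosphoglycerate mutase family, measured 13.3 without lead, 48.7 at 25 ppm and 116 at 50 ppm. Lower genes included AT3G52060 (GnTL), an acetylglucosaminyltransferase-like gene, with 506 without lead, 169.5 at 25 ppm and 159 at 50 ppm, and AT3G26720, an alpha-mannosidase family gene, with 425, 112 and 132. LYC, the lycopene cyclase of carotenoid synthesis, measured 463 without lead, 199.8 at 25 ppm and 146 at 50 ppm. A second LYC probe set gave 268.5, 164 and 127.9 and missed 2-fold at 25 ppm.

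Several changed genes have no role stated here. Of the 28 loci outside the groups 17 were higher and 11 lower. AT2G18690 measured 140.5 without lead, 458 at 25 ppm and 701 at 50 ppm, AT4G24340 measured 122, 363 and 475, and AT4G10410, near the floor, measured 10.4, 41.0 and 33.4. AT2G23830, another weak signal, measured 8.0, 24.7 and 29.3. Second probe sets of AT2G23830 (2.3, 1.4 and 2.7 at 0, 25 and 50 ppm) and of AT4G24340 (5.8, 13.9 and 16.7) were too weak to be compared. AT2G24240 was lower, at 124 without lead, 32.3 at 25 ppm and 49.6 at 50 ppm. AT2G44220 was lower as well, at 33.2, 8.4 and 1.1, and so was AT4G20840, of the berberine bridge enzyme family, at 77.3, 31.7 and 26.5. With signals under 16 set to 16, 15 of the 93 probe sets that name 1 gene lost their call. Those described here are AT2G41380, AT1G61750, AT4G10160, IAGLU, AT1G19230, AAE15, AT2G23830, AT3G16280 and AT2G29150. Of the 246 changed probe sets 74 carry a suffix (s, f, i, r or g) that marks shared or less specific probes. Among unnamed probe sets, 13467_at gave 19.7 without lead, 597.5 at 25 ppm and 989 at 50 ppm, and 19737_at gave 628, 18.7 and 22.5. Among the changed probe sets the largest fold at 50 ppm was that of 18635_at, which gave 0.9 without lead, 52.1 at 25 ppm and 2156 at 50 ppm.

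Many of the changed transcripts were weak in leaves. A signal under 25 on all 3 leaf arrays was found for 52 of the 152 higher probe sets (34.2%) and 30 of the 94 lower ones (31.9%), against 992 of all 4728 compared (21.0%). OSM34 reached at most 2.6 on the leaf arrays and AT1G12010 at most 6.4. In contrast, KIN2 gave 3056 to 4451 in leaves on its first probe set, above each of its root signals. In leaves with lead, 5 of the 152 were at least 2-fold higher at both doses and 6 at least 2-fold lower. Of the 94, 3 were higher there and 0 lower. Only 100 of the 152 and 64 of the 94 reached 25 on a leaf array and could be called there. The share of all compared probe sets called in leaves is not given here, so nothing particular to the root members is read from these counts. The shares and counts are descriptions and had no test.

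**Figure D5:**
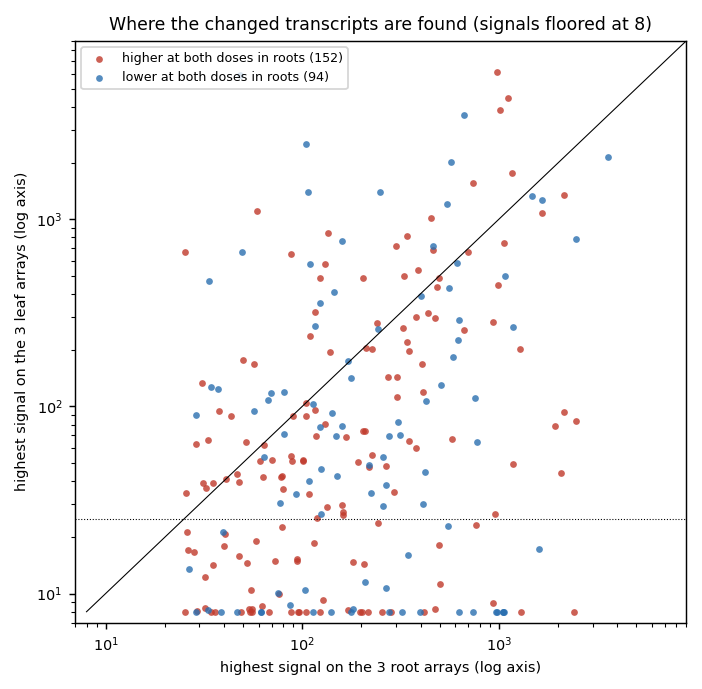
Each point is a probe set changed in roots at both doses, placed by its highest signal on the 3 root arrays and on the 3 leaf arrays (log axes, signals under 8 drawn at 8). Of the 152 higher ones 52 and of the 94 lower ones 30 lie under the dotted line at a leaf signal of 25.

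A few genes were measured more than once or lie side by side. Of 11 changed loci with more than 1 probe set, 2 had every probe set changed at both doses, AT2G42690 and KIN2. The 10 other probe sets of the remaining loci missed the rule on at least 1 dose, 2 of them too weak to be compared. Of the changed loci 3 pairs were direct neighbours among protein-coding genes: AT4G24130 with AT4G24140, AT3G52060 with AT3G52070 and AT4G33110 with AT4G33120. Both genes of each pair had the same direction. How often neighbours share a direction among all compared genes was not counted, so nothing is read from these pairs. Near the threshold, 15978_at was just inside, at 2.00-fold and 2.01-fold higher for 25 and 50 ppm, and LCR69, a defensin-like gene, was just outside, with 777 without lead, 1634 at 25 ppm and 1539 at 50 ppm, or 2.10-fold and 1.98-fold. On the lower side AT2G32150, 2.12 and 2.00 times lower, was just inside.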

How the data were processed

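RNA of roots and rosette leaves was labelled with biotin and read on Affymetrix arrays of 8297 probe sets, as the labels state. The authors deposited linear signal values, 1 column per array. Their 2% trimmed means were 100.1 to 100.2 on the 6 arrays. The software is not named by any source at hand. Of 6 value columns 0 were left unused. After removal of 50 control probe sets, signals were floored at 8, log2 was taken, and probe sets with a signal of at least 25 on 1 or more root arrays were compared as deposited, in Python 3.11.15 with pandas 2.3.3. Median signals were 25.4 to 29.3 on root arrays. With 1 array per group there was no test, and the number of arrays limits the precision. The calling code was tested on simulated data with large planted changes and all signals above the floor. That test did not exercise the floor, the filter or folds near the threshold.

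Probe sets were named through the platform's annotation and gene identifiers of a RefSeq table (assembly TAIR10.1): 3784 name 1 gene, 70 several, 4383 are unnamed here and 10 had no match. Of the compared ones 2045 name 1 gene. Gene families were 54 word searches in gene names, 40 with a compared gene, and 8 locus lists, 7 with one; 2 word searches were narrowed after the data were seen, to drop false matches. Named genes are, in each direction, the 15 whose less changed dose differed most, plus up to 4 per family. Others were chosen after their values were seen. The samples, lists and rules were chosen with earlier results of these data known. Promoter motifs were planned and not run, as no sequence was used here. Alternatives were floors of 16 and 32, an offset of 16, filters, a common trimmed mean, quantile normalization, and 1.5-fold and 3-fold rules; using 1 lead array at a time was added after the data were seen.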

Additional observations from a re-analysis of the deposited data

Results flagged for a closer look

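A set of named genes had opposite directions in the organs at 25 and 50 ppm, 2-fold or more above control in roots but 2-fold or more below it in leaves: Hsp70-2 on 1 of its probe sets, AT2G18690 and AT2G32210. The root change exceeded the leaf change, as means over both doses on the log2 scale, by 5.77, 3.69 and 4.59 in that order. AT2G32210 measured 18.1 without lead, 42.9 at 25 ppm and 207.5 at 50 ppm, and 73.9, 14.3 and 18.0 in leaves at the same doses. These differences were not tested, since each array stands alone. Of 50 control probe sets, which no comparison used, 19 passed the filter and 1 met the 2-fold rule in roots. That probe set, for 25S ribosomal RNA, gave 16.8 without lead, 84.6 at 25 ppm (5.04-fold) and 34.6 at 50 ppm. No explanation of these values was tested.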

How the results depend on the processing

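All counts in roots rest on single arrays, so no setting adds a replicate, and weak signals near the floor limit the folds. No paired analysis was possible because each group holds 1 array. Of the 93 named probe sets called, 22 of the 61 higher and 20 of the 32 lower kept their call under all 5 other floors and scalings (floors of 16 and 32, the offset, the trimmed mean and quantile normalization). None of their 186 log2 changes turned to the opposite sign in these 5, but 22 of them became 0 with a floor of 32, which has no direction. In all, 60 fell under 2-fold with the offset, 58 with a floor of 32, 22 with a floor of 16, 9 with quantile normalization and 0 with the trimmed mean.

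In the order higher and lower at both doses, higher and lower at 25 ppm, and higher and lower at 50 ppm, the counts were 152, 94, 240, 289, 554 and 272. With a 1.5-fold rule they were 355, 301, 568, 698, 957 and 717, and with a 3-fold rule 51, 24, 80, 96, 290 and 99. A mean signal of at least 100 gave 68, 50, 110, 128, 176 and 119. A signal of at least 100 on 1 array gave 93, 70, 142, 176, 277 and 159. With the offset they were 77, 60, 137, 166, 375 and 166, and with a floor of 32 they were 82, 78, 145, 199, 351 and 196. Using the 25 ppm array alone gave 240 higher and 289 lower, and the 50 ppm array alone 554 and 272. With the other settings, a floor of 16, no filter, the trimmed mean and quantile normalization, the 6 counts stayed within 1.5 times. The share of higher calls at both doses was 61.8%, and 51.2% with a floor of 32. At 50 ppm it was 67.1%, and 57.6% with quantile normalization. Family counts were repeated only with a floor of 16, no filter and quantile normalization. They moved past 1.5 times in 3 cases, all with a floor of 16. For a floor of 32 and the offset, which removed many calls, family counts were not made. Stricter or looser rules admit fewer or more probe sets by construction, and no other cause was tested.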
